A study of Rattus norvegicus with 8 samples.

Results

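The genes described here encode the proteasome, the protease complex that degrades proteins tagged with ubiquitin, and were read in thoracic spinal cord of rats with a spinal cord injury and of sham-operated rats. They were chosen by name, as the symbols Psma to Psmg followed by a digit with a probe set annotated to that symbol alone. Of the 18166 genes with such a probe set, 48 carried such a symbol, on 49 probe sets. Psmb6 had 2 probe sets, of which the brighter was used, and the other gave the same change of -0.04 (log2). Psme3 and Psma3 lay only on probe sets shared with other genes and are not reported. Messenger RNA was measured on 8 Affymetrix Rat Gene 2.0 ST arrays. The SCI group held 4 male Long Evans rats with a thoracic spinal cord injury, and the sham group 4 male Long Evans rats with a laminectomy alone. All are labelled as about 175 days old and 400 g, recovered for 4 weeks after surgery and then ate a diet with 40% fat until the study had run for 8 weeks, so no comparison here concerns the diet. The sources used here do not say how the cord was injured or how far the lesion lay from the sampled piece, and 2 labels place that piece differently, at thoracic segments 10 to 11 and 11 to 12. Nothing in the labels ties an array to a numbered animal, so the p-values measure the spread between these samples, which may be technical.

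The proteasome has a barrel-shaped core, the 20S particle, built of rings of alpha and beta subunits, and the proteolytic sites lie on 3 of the beta subunits, encoded by Psmb5, Psmb6 and Psmb7. Cells of the immune system, and other cells exposed to interferon gamma, build cores in which Psmb8, Psmb9 and Psmb10 take these places, which shifts the peptides that are cut towards those that MHC class I molecules can present. The 19S cap, with its ring of ATPases encoded by the Psmc genes and its other subunits encoded mostly by Psmd genes, binds ubiquitinated proteins, unfolds them and feeds them into the core. PA28, made of Psme1 and Psme2 and also induced by interferon gamma, is another cap that opens the core without ATP.

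The arrays held 2572 genes that differed between the groups at an adjusted p under 0.05 in limma, 14.2% of all tested, with 7.1% higher and 7.06% lower in SCI. The groups lay apart on the first principal component of all genes (45.6% of the variance), and the second (11.2%) set SCI 3, sham 1 and sham 2 (-17.18 to -12.62) apart from the other arrays (4.53 to 14.79). For each proteasome gene past the test the adjusted p is given below also without these 3 arrays. With so few arrays left, calls over all genes fell from 1290 higher and 1282 lower to 563 and 284. A call lost there does not by itself show that the difference depends on those arrays. The fit on all 8 arrays was also run with the second number in the sample title as a covariate. This number was mostly lower in SCI than in sham arrays, so the covariate shares part of the group difference. A call lost with it does not by itself show that the difference is unstable. RNA came from whole tissue, in which fewer cells of a type and less RNA per cell cannot be told apart.

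In injured cord the immune catalytic subunits Psmb8 and Psmb10 were higher, 4 subunits of the 19S cap were lower (Psmc5, Psmd12, Psmc1 and Psmc6), and the alternative cap Psme4 was higher. No gene of the constitutive core passed the test. Of the 48 genes, 3 were higher and 4 lower, 14.6% of them, which is close to the 14.2% of all genes tested. The 5 immune genes (Psmb8, Psmb9, Psmb10, Psme1 and Psme2) had a median change of 0.33 (log2, SCI minus sham) and 2 of 5 passed the test upward, against a median of -0.08 and 1 higher and 4 lower among the other 43 genes. The median over all genes was -0.01. Differences above 0 were seen in 5 of 5 immune genes and in 9 of the other 43, beside 8710 of all 18166 genes. All SCI arrays lay above all sham arrays in 3 of the 5 immune genes and in 1 of the other 43, which held for 9.36% of all genes, and below them in 0 of the 5 and 9 of the 43, which held for 10.9%. With each gene centred on its mean over the 8 arrays, the mean of the 5 immune genes was 0.13 to 0.29 in SCI arrays and -0.29 to -0.11 in sham arrays. The same mean over the other 43 genes was -0.10 to -0.02 in SCI arrays and 0.01 to 0.10 in sham arrays.

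Markers of several cell types also differed between the groups, where 7.1% of all genes were higher and 7.06% lower. Of 12 myeloid markers 12 were higher, with a summed signal (linear) of 2827 to 3820 in SCI arrays and 950 to 1165 in sham arrays. Of 10 T, B and NK cell markers 3 were higher, with sums of 391 to 506 in SCI and 244 to 283 in sham. These were Cd4 (8.53 ± 0.21 in SCI and 7.58 ± 0.11 in sham, log2, SD, n = 4), Cd8a (5.06 ± 0.23 in SCI and 3.58 ± 0.10 in sham) and the dim Cd3g (2.31 ± 0.15 in SCI and 1.82 ± 0.15 in sham), of which Cd4 and Cd8a are in the rat also made by macrophages. The other 7, among them Cd3e, Cd3d, Cd79a and Ms4a1, had dim signals in both groups and did not pass, and the median over the 10 was 0.15. Of 10 neuronal markers 9 were lower, with sums of 7348 to 8926 in SCI and 10584 to 12196 in sham, and of 7 oligodendrocyte markers 5 were lower, with 5403 to 6135 in SCI and 8340 to 8797 in sham. Of 6 astrocyte markers 2 were higher and 1 lower (9063 to 9846 in SCI and 7621 to 7887 in sham), and of 4 endothelial markers 1 was higher (285 to 317 in SCI and 262 to 346 in sham). RMA gives no level of 0, and 0 of the markers were at 0. The part of these cell types in the changes of the proteasome genes was not tested.

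Psmb8, the immune counterpart of Psmb5, had the largest rise of the 48 genes. Its signal was 5.82, 5.89, 5.78 and 5.68 in the SCI arrays, against 4.95, 4.90, 4.69 and 4.91 in the sham arrays (log2 RMA signal). Every SCI array lay above every sham array, and the mean was 5.79 ± 0.09 in SCI and 4.87 ± 0.12 in sham (SD, n = 4). The change of 0.93 (SE 0.10, adjusted p = 0.0002) is 1.90-fold, and its adjusted p was 0.0028 with the covariate and 0.012 when SCI 3, sham 1 and sham 2 were dropped.

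Psmb10, which takes the place of Psmb7, had 5.48, 5.55, 5.40 and 5.28 in SCI arrays and 5.06, 5.05, 4.81 and 4.98 in sham arrays. The groups did not overlap, and the 1.37-fold difference (0.45, SE 0.10) passed the test at an adjusted p of 0.014. The adjusted p was 0.091 with the title number as a covariate and 0.071 without SCI 3, sham 1 and sham 2, where the change was 0.54. Psmb9, which takes the place of Psmb6, had 5.30, 5.17, 5.32 and 4.69 in SCI arrays and 5.06, 5.05, 4.75 and 4.56 in sham arrays. SCI 4 lay within the range of the sham arrays while the other 3 SCI arrays lay above it, and the difference of 0.26 (SE 0.16) did not pass the test (adjusted p = 0.36). With 1 array left out it was 0.17 (without sham 4) to 0.41 (without SCI 4, adjusted p = 0.089), and with the covariate it was 0.05 (adjusted p = 0.90).

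The subunits of PA28 did not pass the test. Psme2, the beta subunit, had 7.46, 7.52, 7.53 and 7.62 in SCI arrays and 6.96, 7.40, 7.36 and 7.08 in sham arrays. The SCI arrays were closely spaced and all above the sham arrays, which were spread more widely (SD 0.07 in SCI and 0.21 in sham), and the difference was 0.33 (SE 0.12, adjusted p = 0.085). It passed with a variance model that follows the mean and resists outliers (adjusted p = 0.025). Psme1, the alpha subunit, had 6.33, 6.28, 6.04 and 6.35 in SCI arrays and 6.41, 5.14, 6.03 and 6.10 in sham arrays. Its groups overlapped, and 1 low array, sham 2, set most of the difference of 0.33 (SE 0.23, adjusted p = 0.41), which was 0.07 without it. The individual arrays of these genes are plotted with those of Psmb5, Psmb6 and Psmb7.

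**Figure D1:**
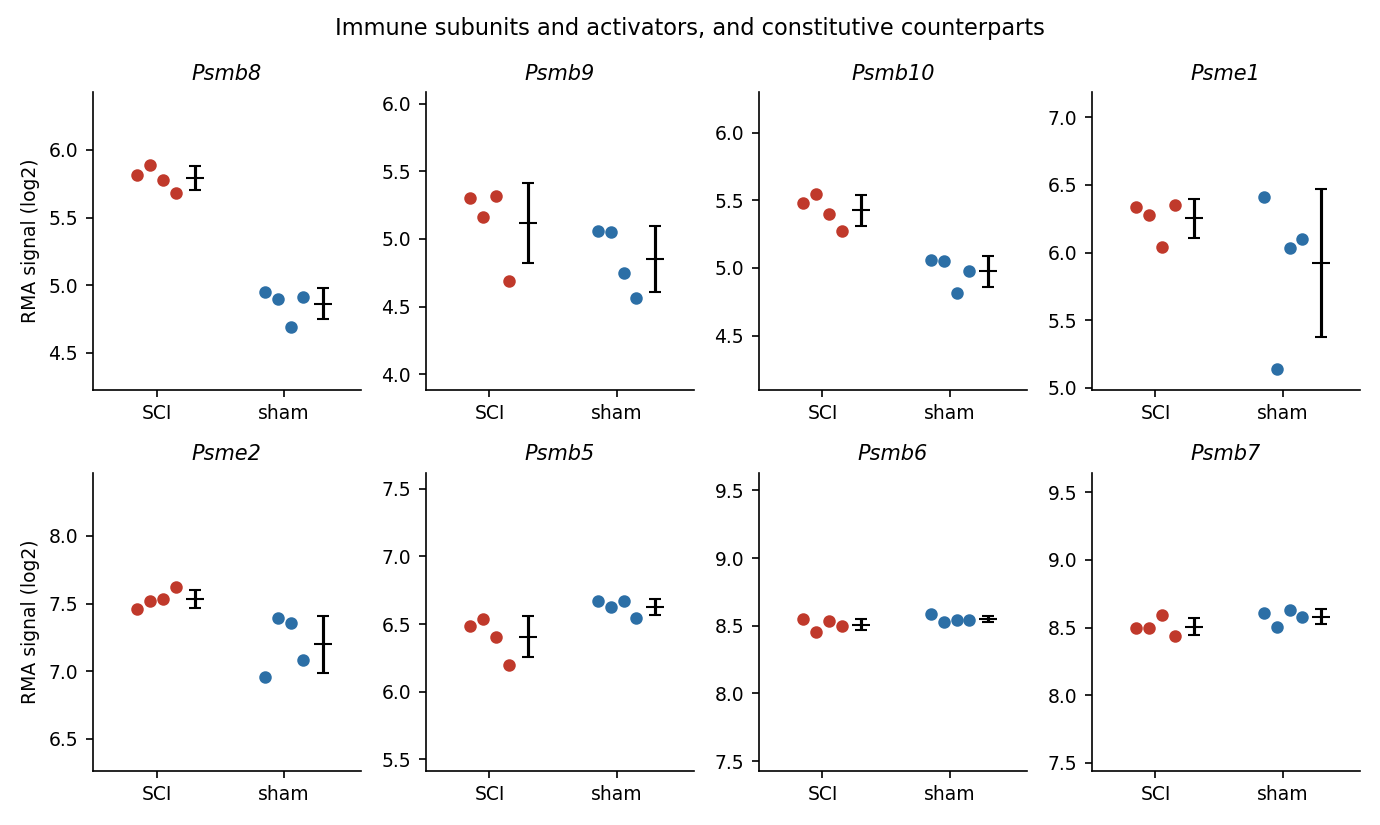
RMA signal (log2) of the 5 immune genes and 3 constitutive catalytic subunits on each array, SCI left and sham right, with the mean and SD of 4 arrays as a bar beside the points. Each panel spans the same log2 range around its own centre. Psmb8, Psmb10 and Psme2 have SCI arrays all above the sham arrays, and Psme1 has 1 low sham array at 5.14.

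The constitutive catalytic subunits had no difference past the test. Psmb5 had 6.48, 6.54, 6.40 and 6.19 in SCI arrays and 6.67, 6.63, 6.67 and 6.55 in sham arrays. All SCI arrays lay below the sham arrays, narrowly so, and the difference was -0.22 (SE 0.10, adjusted p = 0.19). Psmb6 had 8.55, 8.45, 8.53 and 8.50 in SCI arrays and 8.58, 8.53, 8.54 and 8.54 in sham arrays, a difference of -0.04 (SE 0.08) that was 0.02 after quantile normalization. Psmb7 had 8.49, 8.50, 8.59 and 8.44 in SCI arrays and 8.61, 8.50, 8.63 and 8.58 in sham arrays, a difference of -0.07 (SE 0.09). The groups overlapped in both, and each gene's SDs were at most 0.06.

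Each immune subunit was then set against the subunit whose place it takes, as the log2 difference within each array, centred on the mean of the 8 arrays because levels of different probe sets cannot be compared. For Psmb8 minus Psmb5 the centred difference was 0.52, 0.54, 0.56 and 0.68 in SCI arrays and -0.53, -0.54, -0.79 and -0.44 in sham arrays. Psmb8 and Psmb5 thus differed in their change by 1.15 (SE 0.08), with no overlap of the groups. For Psmb10 minus Psmb7 it was 0.33, 0.39, 0.15 and 0.18 in SCI arrays and -0.21, -0.11, -0.47 and -0.26 in sham arrays, a difference in change of 0.52 (SE 0.10), again with no overlap. For Psmb9 minus Psmb6 it was 0.29, 0.25, 0.33 and -0.26 in SCI arrays and 0.02, 0.06, -0.25 and -0.44 in sham arrays, where SCI 4 fell among the sham arrays and the difference in change was 0.31 (SE 0.18). Permuting the group labels over all 70 assignments (exact test, two-sided) gave p = 0.029 for the first 2 pairs, the smallest p it can give, and 0.043 after Benjamini-Hochberg adjustment over the 3 pairs. The same exact test gave p = 0.2 for Psmb9 and Psmb6. Psmb8 and Psmb10 had been seen to rise before the pairs were tested, so the tests of their pairs are not independent of the changes above. With any 1 array left out the difference in change was 1.08 to 1.19 for Psmb8, 0.45 to 0.57 for Psmb10 and 0.21 to 0.44 for Psmb9.

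**Figure D2:**
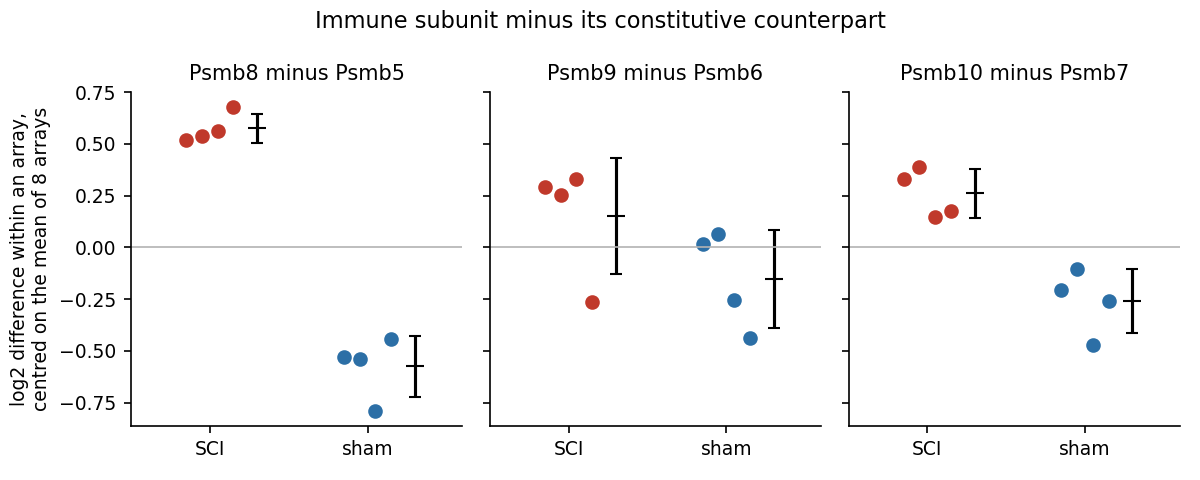
Log2 difference within an array between an immune subunit and its constitutive counterpart, centred on the mean of the 8 arrays, with SCI left and sham right and the mean and SD of 4 arrays beside the points. The groups do not overlap for Psmb8 minus Psmb5 and for Psmb10 minus Psmb7, and 1 SCI array of Psmb9 minus Psmb6 lies among the sham arrays.

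Promoter sequences are shown for the 5 immune genes, which are known targets of interferon signalling, and for Psmc5, which had the largest fall. They are RefSeq sequences of the GRCr8 assembly, 250 bases before to 50 after the annotated start, in the direction of the gene. They lie at chr20:4656982-4657281 (Psmb8, minus strand), chr19:50743243-50743542 (Psmb10, minus strand), chr15:33052702-33053001 (Psme2, minus strand), chr20:4668750-4669049 (Psmb9, plus strand), chr15:33038721-33039020 (Psme1, plus strand) and chr10:91687303-91687602 (Psmc5, plus strand). Capitals mark matches on either strand to GAAA followed after any 2 bases by another GAAA, the core of the interferon-stimulated response element (ISRE), a site bound by interferon regulatory factors.
Psmb8: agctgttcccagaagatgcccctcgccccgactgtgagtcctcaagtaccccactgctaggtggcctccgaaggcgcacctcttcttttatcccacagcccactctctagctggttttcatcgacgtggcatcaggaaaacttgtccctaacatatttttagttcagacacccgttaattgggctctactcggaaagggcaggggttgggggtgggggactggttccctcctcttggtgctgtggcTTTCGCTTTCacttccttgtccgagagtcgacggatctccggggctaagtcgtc
Psmb10: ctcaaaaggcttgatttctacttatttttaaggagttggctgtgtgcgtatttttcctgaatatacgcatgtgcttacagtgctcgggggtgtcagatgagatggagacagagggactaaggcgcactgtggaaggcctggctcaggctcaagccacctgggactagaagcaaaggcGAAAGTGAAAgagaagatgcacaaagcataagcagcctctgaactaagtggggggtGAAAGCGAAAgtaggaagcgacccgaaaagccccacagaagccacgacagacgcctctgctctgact
Psme2: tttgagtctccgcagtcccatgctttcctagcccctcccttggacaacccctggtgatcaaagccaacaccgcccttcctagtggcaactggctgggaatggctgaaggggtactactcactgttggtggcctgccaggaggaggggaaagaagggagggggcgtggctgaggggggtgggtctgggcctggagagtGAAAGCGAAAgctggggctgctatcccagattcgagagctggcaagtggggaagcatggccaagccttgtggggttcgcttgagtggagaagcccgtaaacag
Psmb9: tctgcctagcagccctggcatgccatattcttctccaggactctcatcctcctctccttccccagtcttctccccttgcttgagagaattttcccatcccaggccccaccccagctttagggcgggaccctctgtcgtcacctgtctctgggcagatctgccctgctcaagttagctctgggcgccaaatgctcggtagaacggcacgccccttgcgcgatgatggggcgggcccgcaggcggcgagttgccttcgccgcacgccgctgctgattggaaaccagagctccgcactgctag
Psme1: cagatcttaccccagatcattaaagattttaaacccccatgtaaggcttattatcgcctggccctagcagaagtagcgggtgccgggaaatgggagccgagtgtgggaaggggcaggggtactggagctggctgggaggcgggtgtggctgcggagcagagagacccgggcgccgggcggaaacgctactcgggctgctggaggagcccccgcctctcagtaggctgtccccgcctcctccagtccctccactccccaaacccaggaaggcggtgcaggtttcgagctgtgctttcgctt
Psmc5: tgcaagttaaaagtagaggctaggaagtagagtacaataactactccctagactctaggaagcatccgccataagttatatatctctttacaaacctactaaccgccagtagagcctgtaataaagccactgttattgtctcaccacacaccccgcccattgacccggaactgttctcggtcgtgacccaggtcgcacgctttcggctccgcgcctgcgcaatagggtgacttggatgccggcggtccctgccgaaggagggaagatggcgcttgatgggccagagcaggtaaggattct

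Of the 5 immune genes, Psmb8, Psmb10 and Psme2 held the ISRE core. The motif was chosen with the changes of these genes known. Psmb10 held 2 matches, starting at -73 and -17 from the annotated start, Psme2 held 1 at -53, and Psmb8 held 1 on the opposite strand at -4. Psmb9 and Psme1 held no match in this window. RefSeq promoters were found for 40 of the 48 genes, and 4 of the other 35 held the core. These did not pass the test, with changes of -0.22 in Psmd7, -0.11 in Psmb3, 0.01 in Psma4 (-0.03 with array median centring) and 0.20 in Psmg4. In all 7 of 40 promoters held it (17.5%), 3 of them of immune genes, against 3.92% of the 33469 promoters in the table. That background counts promoters and not genes, and the difference between these shares was not tested. The core of the antioxidant response element, TGACNNNGC, to which Nfe2l1 and Nfe2l2 bind, was in 7 of 40 promoters (Psmb2, Psmb5, Psmb6, Psmd1, Psmd3, Psmd9 and Psme4), or 17.5%, against 12.1% of all promoters. It was in 0 of the 5 immune promoters and 7 of the other 35. Of the 7 genes Psme4 alone passed the test, and the difference between these shares was not tested either. No match to one of these motifs overlapped a match to the other in these promoters. A match describes the sequence and is not evidence of binding.

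**Figure D3:**
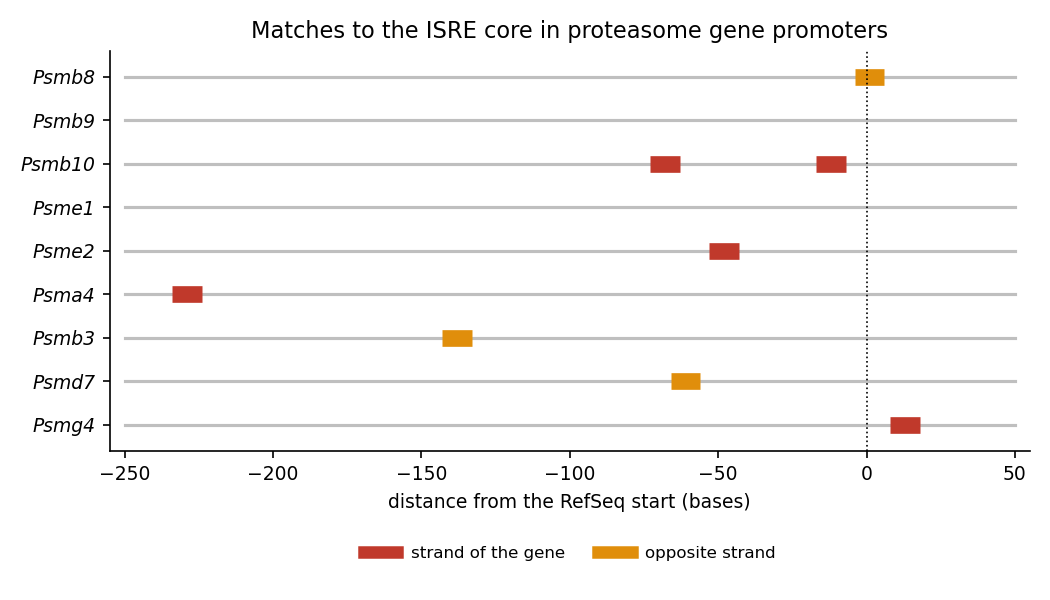
Matches to the ISRE core in the promoters of the 5 immune genes and of the 4 other proteasome genes that hold one, by distance in bases from the RefSeq start (dotted line), coloured by strand. Psmb10 has 2 matches, Psmb8 and Psme2 have 1 each, and Psmb9 and Psme1 have none in this window.

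In the rest of the core, 0 of 6 alpha subunits and 0 of 4 structural beta subunits passed the test. The alpha subunits, whose ring gates the entrance to the core, had a median change of -0.03, from -0.18 in Psma7 (SE 0.10, adjusted p = 0.27) to 0.01 in Psma4, for which array median centring gave -0.03. The structural beta subunits Psmb1 to Psmb4, which carry no active site, had a median of -0.08, from -0.11 in Psmb4 (SE 0.09) to 0.09 in Psmb2 (SE 0.10), which was -0.0065 without SCI 3, sham 1 and sham 2. Psmb11, which replaces Psmb5 in the thymus, had a dim signal of 3.13 to 3.30 in SCI arrays and 3.35 to 3.45 in sham arrays, and its difference of -0.18 (SE 0.09) did not pass (adjusted p = 0.24). All core genes outside the immune set, with their standard errors, appear in the plot of changes by role.

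**Figure D4:**
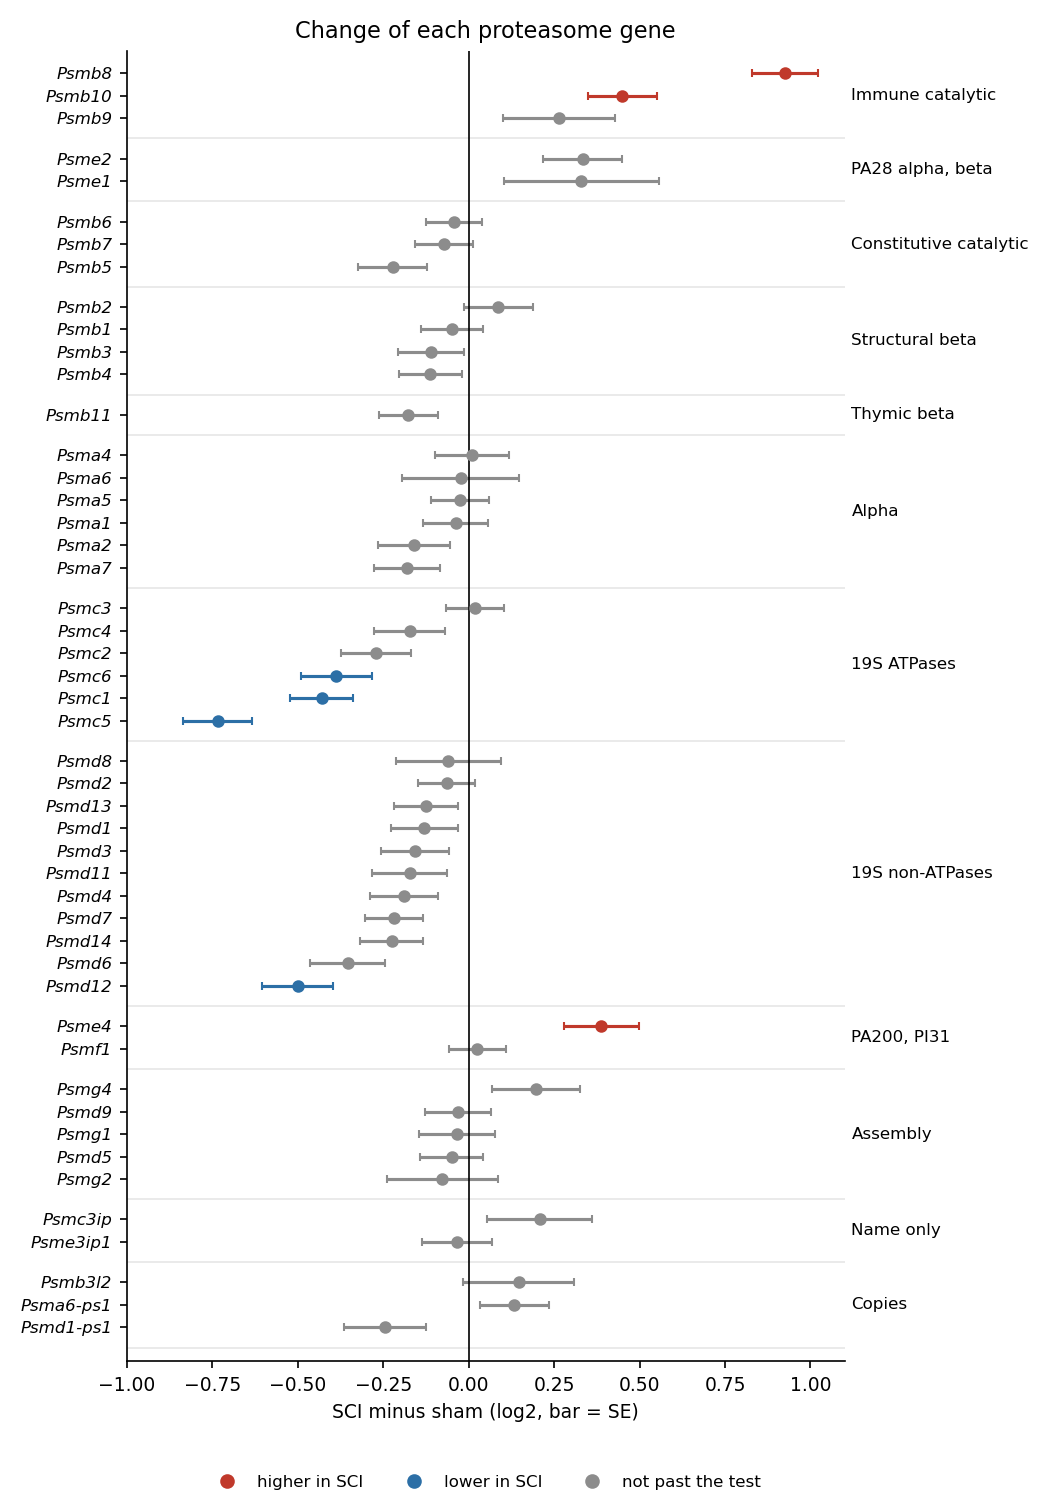
Change of each of the 48 genes (SCI minus sham, log2), grouped by role, with the SE from limma as bars, and coloured by whether the adjusted p was under 0.05. Psmb8 is farthest to the right at 0.93 and Psmc5 farthest to the left at -0.73, and the core subunits outside the immune set lie between -0.22 and 0.09.

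The 19S cap was lower in part. Of its 17 subunits measured under the naming rule, 4 fell and 0 rose (lower calls were 7.06% of all genes). A difference below 0 was seen in 16, beside 9456 of all 18166 genes, and the median was -0.19. In 7 of the 17 all SCI arrays lay below the sham arrays, which held for 10.9% of all genes. Among the ATPases of the base, 3 of 6 fell, with a median of -0.33, and among the other 11 of these subunits 1 fell, with a median of -0.17. Adrm1 and Sem1, cap subunits outside the naming rule, had differences of 0.10 (SE 0.105) and 0.01 (SE 0.09). Neither passed, and both are counted with the partners below.

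Psmc5, the ATPase Rpt6, fell most. It had 6.82, 6.73, 7.03 and 6.86 in SCI arrays and 7.46, 7.55, 7.70 and 7.67 in sham arrays. The groups were well apart, with a mean of 6.86 ± 0.13 in SCI and 7.60 ± 0.11 in sham (SD, n = 4), and it fell by 0.73 (SE 0.10, adjusted p = 0.001), to 0.60 of the sham signal. The call held without SCI 3, sham 1 and sham 2 (adjusted p = 0.011) and with the title number as a covariate.

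Psmc1, the ATPase Rpt2, had 7.32, 7.24, 7.31 and 7.35 in SCI arrays and 7.69, 7.60, 7.86 and 7.79 in sham arrays, and fell by 0.43 (SE 0.09, adjusted p = 0.011). The SCI arrays were closely spaced (SD 0.05 in SCI and 0.11 in sham) and all below the sham arrays. Its adjusted p was 0.053 without SCI 3, sham 1 and sham 2 and 0.069 with the covariate. Psmc6, the ATPase Rpt4, had 7.23, 7.06, 7.08 and 7.35 in SCI arrays and 7.48, 7.48, 7.61 and 7.69 in sham arrays, and fell by 0.39 (SE 0.10, adjusted p = 0.030). Here too the groups did not overlap, but the adjusted p was 0.056 to 0.086 when any 1 of SCI 1, SCI 2, SCI 3, sham 3 and sham 4 was dropped, 0.15 with the covariate and 0.11 when SCI 3, sham 1 and sham 2 were dropped together. The other ATPases of the ring did not pass. Psmc2 had a difference of -0.27 (SE 0.10, adjusted p = 0.11), Psmc4 of -0.17 (SE 0.10, adjusted p = 0.34) and Psmc3 of 0.02 (SE 0.09, adjusted p = 0.93). Psmc3 was at -0.02 with array median centring, and Psmc2 passed without SCI 4 (adjusted p = 0.038).

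Psmd12, the lid subunit Rpn5, had 7.49, 7.20, 7.17 and 7.44 in SCI arrays and 7.77, 7.85, 7.85 and 7.84 in sham arrays. It fell by 0.50 (SE 0.10, adjusted p = 0.0088), and the SCI arrays were spread more widely (SD 0.17) than the sham arrays (SD 0.04). Its adjusted p was 0.099 without SCI 3, sham 1 and sham 2. The lid subunit Psmd6 had the next lowest value, with 7.49, 7.50, 7.68 and 7.50 in SCI arrays and 7.80, 7.71, 7.96 and 8.11 in sham arrays. Its difference of -0.35 (SE 0.11) missed the threshold at an adjusted p of 0.055, and it passed without SCI 3, sham 1 and sham 2 (0.049), without sham 2 alone (0.040) and with each array centred on its median (0.040). Psmd14, the deubiquitinase of the lid, had a difference of -0.22 (SE 0.09, adjusted p = 0.14), and Psmd7, its partner, of -0.22 (SE 0.09, adjusted p = 0.12). The value closest to 0 among these 11 was that of Psmd8, at -0.06 (SE 0.15) and 0.03 without SCI 2, followed by Psmd2 at -0.06 (SE 0.08), a subunit of the base that receives ubiquitin-like domains.

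**Figure D5:**
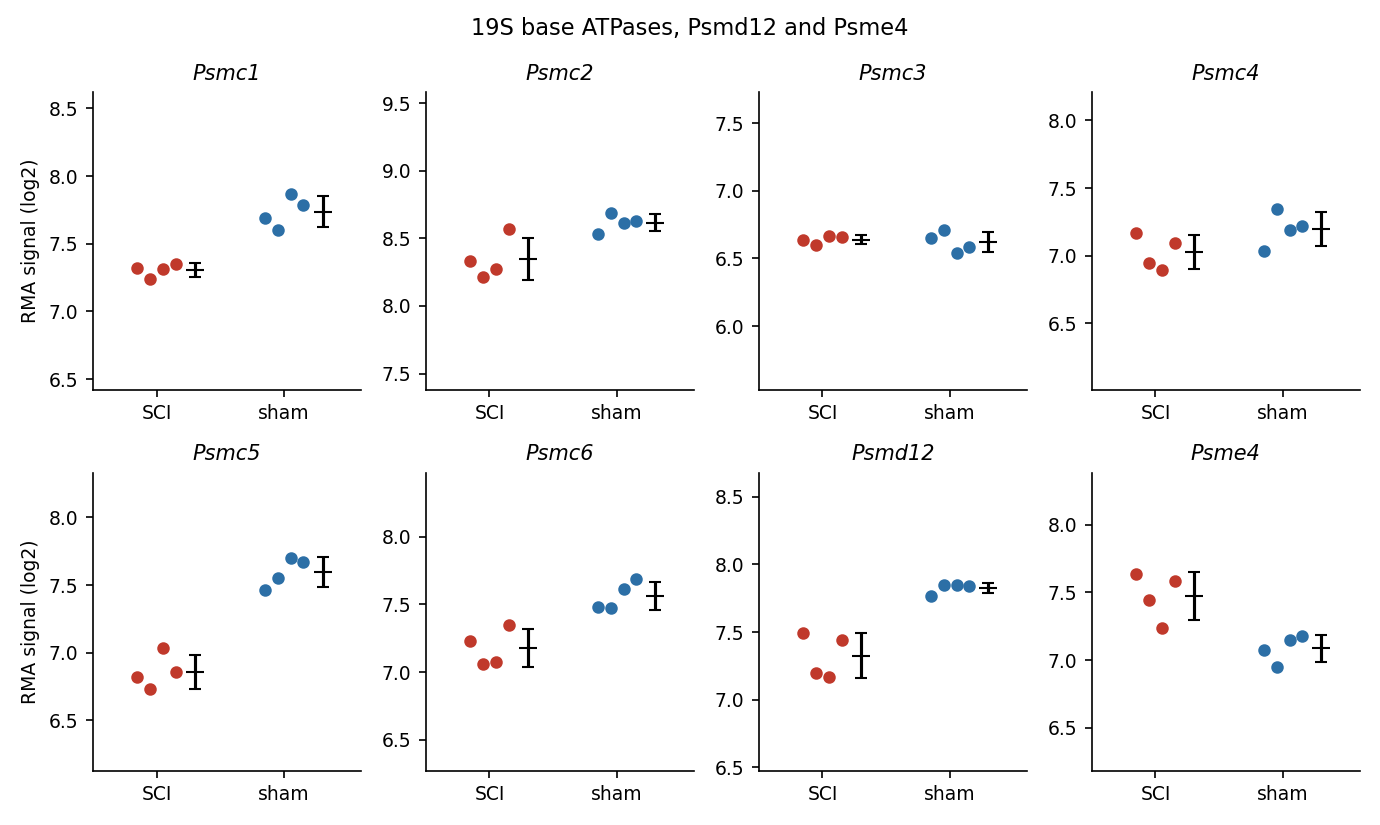
RMA signal (log2) of the 6 ATPases of the 19S base, of the lid subunit Psmd12 and of the alternative cap Psme4 on each array, SCI left and sham right, with the mean and SD of 4 arrays beside the points. Psmc1, Psmc5, Psmc6 and Psmd12 have all SCI arrays below the sham arrays, Psmc3 has overlapping groups, and Psme4 has all SCI arrays above.

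Among the remaining caps and regulators, Psme4, which encodes PA200, a cap that opens the core without ubiquitin, had 7.64, 7.44, 7.24 and 7.58 in SCI arrays and 7.08, 6.95, 7.15 and 7.18 in sham arrays. All SCI arrays lay above the sham arrays, and it rose 1.31-fold (0.39, SE 0.11, adjusted p = 0.040). This call was lost on leaving out any 1 array but SCI 3 (adjusted p of 0.063 to 0.11), with array median centring (0.070), when the covariate was added (0.13) and when SCI 3, sham 1 and sham 2 were dropped (0.12). Psmf1, the proteasome inhibitor PI31, had a difference of 0.03 (SE 0.08), and of -0.01 with array median centring. Of 5 assembly chaperones, which guide the rings together and leave the finished particle, 0 passed, from -0.08 in Psmg2 (SE 0.16), which was 0.03 without SCI 1, to 0.20 in Psmg4 (SE 0.13), which was 0.09 without SCI 4. Psmc3ip, a factor of meiotic recombination, and Psme3ip1, a binding partner of PA28 gamma, match by name but are not proteasome subunits, and had differences of 0.21 (SE 0.15, and 0.08 without SCI 2 to 0.35 without SCI 4) and -0.03 (SE 0.10, and 0.06 with the covariate). The pseudogenes Psma6-ps1 and Psmd1-ps1 and the gene copy Psmb3l2, with 0.13, -0.25 and 0.15, did not pass either, and their probe sets may share signal with the parent genes.

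Genes outside the naming rule that work with the proteasome were lower in part. Of 12 measured partners (ubiquitin shuttles, deubiquitinases, assembly factors and the cap subunits Adrm1 and Sem1), 3 fell and 0 rose. The median of the 12 was -0.06. Of all genes 7.06% fell. Usp14, a deubiquitinase on the 19S cap, fell by 0.58 (SE 0.13, adjusted p = 0.012), Uchl5, another, fell by 0.46 (SE 0.13, adjusted p = 0.039) and Ubqln2, a shuttle factor, fell by 0.34 (SE 0.09, adjusted p = 0.032). None of these 3 passed without SCI 3, sham 1 and sham 2 (0.088, 0.088 and 0.078) or with the covariate (0.084, 0.20 and 0.15), and Uchl5 and Ubqln2 each lost the call on leaving out any 1 of 6 arrays. Of Uba1, Uba6 and Vcp, the measured genes of a list on ubiquitin and its activation, 0 passed. Uba6 had the lowest value at -0.35 (SE 0.11, adjusted p = 0.056), and -0.39 with array median centring, where it passed (0.043).

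Of 8 transcription factors and their processing enzymes that act on proteasome genes, 1 passed, which is 12.5% and near the 14.2% of all genes. Nfe2l2, the factor of the oxidative stress response, rose 1.52-fold, to 8.79 ± 0.08 in SCI, against 8.18 ± 0.16 in sham (SD, n = 4; 0.60, SE 0.10, adjusted p = 0.0037, and 0.066 without SCI 3, sham 1 and sham 2). Nfe2l1, which raises proteasome genes when the proteasome is inhibited, had a difference of -0.06 (SE 0.09), its protease Ddi2 one of -0.18 (SE 0.13) and the small Maf factor Maff one of 0.14 (SE 0.10).

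The genes that act with the immune subunits were higher in part. Of 12 measured genes of the interferon gamma path, 7 rose and 0 fell, with a median of 0.49, where 7.1% of all genes rose. Irf8, an interferon regulatory factor of myeloid cells, rose by 0.85 (SE 0.11, adjusted p = 0.00057), Stat2, a transducer of interferon signals, by 0.48 (SE 0.09, adjusted p = 0.0064) and the receptor Ifngr1 by 0.64 (SE 0.13, adjusted p = 0.0077). Irf1, known to induce the immune subunits, rose by 0.49 (SE 0.13, adjusted p = 0.032), a call lost on leaving out any 1 of 6 arrays (0.051 to 0.092). Ifng itself was dim, at 2.84 ± 0.26 in SCI and 2.55 ± 0.22 in sham (SD, n = 4), with a difference of 0.29 (adjusted p = 0.26) that was 0.17 without SCI 3 and 0.06 without SCI 3, sham 1 and sham 2. When SCI 3, sham 1 and sham 2 were dropped, the adjusted p was 0.029 for Irf8, 0.033 for Irf1, 0.061 for Stat2 and 0.068 for Ifngr1, and with the covariate it was 0.058 for Ifngr1 and 0.17 for Irf1.

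Of 9 genes that load peptides onto MHC class I, 3 rose and 0 fell, with a median of 0.20, beside the same 7.1%. B2m, the light chain of the class I molecule, rose by 0.81 (SE 0.10, adjusted p = 0.00064). Tap1, a subunit of the transporter that carries the cut peptides into the endoplasmic reticulum, rose by 0.68 (SE 0.17, adjusted p = 0.022), and Erap1, which trims them there, rose by 0.36 (SE 0.10, adjusted p = 0.040). The adjusted p was 0.018 for B2m, 0.14 for Tap1 and 0.18 for Erap1 when SCI 3, sham 1 and sham 2 were dropped, 0.12 for Tap1 and 0.14 for Erap1 with the covariate, and 0.066 for Erap1 with array median centring, and both lost the call without single arrays (3 for Tap1, 5 for Erap1). In the GRCr8 annotation Tap1 lies between Psmb8 and Psmb9 on chromosome 20, with Tap2 on the other side of Psmb8. Going along the chromosome, the changes were 0.26 in Tap2 (SE 0.11), 0.93 in Psmb8, 0.68 in Tap1 and 0.26 in Psmb9, of which Psmb8 and Tap1 passed the test.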

How the data were processed

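Messenger RNA was measured on 4 SCI and 4 sham arrays. The deposited log2 values were made by the authors with Affymetrix Expression Console and RMA, per the submitters' processing notes. Versions, settings and build: not given in the sources used here. Base 2 was inferred because RMA writes log2 values and these span such a range. The table held 36685 probe sets, of which 18511 carried 1 symbol in the platform annotation (575 several, 17599 none here). The brightest probe set of each symbol left 18166 genes. The groups were fitted in R 4.3.3 by lmFit and eBayes of limma 3.58.1 without a covariate, with Benjamini-Hochberg adjustment over all genes and a call at an adjusted p under 0.05. Differences between paired subunits were tested with the exact permutation test of scipy 1.17.1. The pairs of Psme1 and Psme2 with Psme3 could not be run. The fit was checked on simulated data, where it recovered 30% of 100 genes changed by 0.5 (log2) and 87% of 100 changed by 1.0. There were 10 false calls. Changes of 0.5 were often missed in the simulation. Only these 100 and 100 genes of 18166 were changed in it, against 2572 called in the data, so its Benjamini-Hochberg cut-off was stricter. The share recovered therefore does not carry over to the data. A gene that did not pass is still not shown to be unchanged. Replicate numbers follow accession order and pair no samples. No pair of arrays held identical values, and the number of arrays limits the precision.

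The genes, the lists and the role groups were chosen with earlier results of these data known. Values on every array are given for the immune genes, for Psmb5, Psmb6 and Psmb7 and for each proteasome gene past the test. Psmd6 was added to these after its values were seen. In each role group the highest and lowest changes are named, and in each other list the 3 genes with the smallest p. Psmc2, Psmc4, Psmd2, Psmd7, Psmd14, Nfe2l1, Irf1, Ifng and Tap2 were also chosen after their values were seen, as were the motifs, the markers Cd4, Cd8a and Cd3g and the other markers named. The result of 1 further motif is not reported here. Promoters are RefSeq sequences of GRCr8. Alternatives were array median centring, quantile normalization, leaving out genes below the lower quartile of mean signal, eBayes with trend and robust fitting, the second number in the title as a covariate, leaving out 3 arrays or each array in turn, and the mean of a gene's probe sets.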

Additional observations from a re-analysis of the deposited data

Results flagged for a closer look

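In 5 of 96 groups of 4 arrays (48 genes in 2 groups), 1 array stood far from the other 3, with a gap past Dixon's critical value for 4 samples. Chance flags about 1 in 20 groups. The lowest sham array was sham 1 in 4 of them. Psma2 had 7.02 there, against 7.34 to 7.36 in the other sham arrays (gap 0.955 of the range), and Psmd11 had 6.60 against 6.92 to 6.95 (0.919). Psmd12 had 7.77 against 7.84 to 7.85 (0.885), and Psmd14 had 6.96 against 7.16 to 7.20 (0.849). In the SCI group, Psmd6 had 7.68 in SCI 3, against 7.49 to 7.50 in the other SCI arrays (0.925). The adjusted p of Psmd6 ranged from 0.011 to 0.25 over the alternatives.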

How the results depend on the processing

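The number of genes called higher was 3, and 2 to 3 with any 1 array left out. It was 1 with the title number as a covariate and 1 without SCI 3, sham 1 and sham 2, where Psmb8 remained. The number called lower was 4, and 3 to 5 with any 1 array left out. It was 7 with trend and robust fitting, 2 with the covariate (Psmc5 and Psmd12) and 2 without the 3 arrays (Psmc5 and Psmd6). The differences in change of the 3 pairs kept their sign under quantile normalization and every omission of arrays (array centring cancels within a pair), with 1.08 to 1.19, 0.21 to 0.44 and 0.45 to 0.57 for Psmb8, Psmb9 and Psmb10 when 1 array was left out. With 3 or fewer arrays in a group that permutation test cannot reach 0.05. Signs turned only in genes named as not past the test. Quantile normalization gave 0.0207 for Psmb6 and 0.0101 for Uba1. Array centring gave -0.0284 for Psma4, -0.0136 for Psmf1 and -0.0207 for Psmc3. Without the 3 arrays Psma4 had -0.14, Psmb2 -0.0065 and Psmg2 0.0077, and Psme3ip1 had 0.0647 with the covariate. With any 1 array left out Psma4 ranged from -0.0485 to 0.0705, Psmc3 from -0.0092 to 0.0473, Psmg2 from -0.1670 to 0.0341, Psmd8 from -0.1953 to 0.0295 and Psme3ip1 from -0.0976 to 0.0072. Over all genes, 1290 were called higher and 1282 lower, 813 and 543 with the covariate, 563 and 284 without the 3 arrays, 923 and 780 without SCI 2, and 1002 and 838 without sham 4. The causes were not tested. No paired analysis was possible because the labels give the groups no shared replicate numbers.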
